A study of Mus musculus with 6 samples.

Results

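The microRNA miR-22, printed as mmu-miR-22 on the arrays, is 1 of 690 mouse miRNAs measured in the 3 zones of the growth plate. It was chosen by its name and because earlier results of the same arrays showed its signal to be higher from the prehypertrophic zone onwards, so its levels and its differences from the proliferative zone are given here as a description, with no test. The RNA came from femoral growth plates of 12-day-old C57BL/6 mice, from which each zone was microdissected: 2 arrays of the proliferative zone, 2 of the prehypertrophic zone and 2 of the hypertrophic zone. Each array received 100 ng of Cy3-labelled total RNA from 5 pooled growth plates. The labels do not say which animals entered which pool, so the spread between arrays may be partly technical. The question was how miRNA levels differ along the path of chondrocyte maturation.

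In the growth plate, chondrocytes divide in columns, leave the cell cycle, become prehypertrophic and then enlarge into hypertrophic cells that mineralise their matrix. A miRNA binds messenger RNAs mainly through its seed, the short stretch near its 5′ end, and lowers their stability or translation. miR-22 is found in many tissues. It is known for its role in the growth of heart muscle cells in mice, for targeting the histone deacetylase HDAC4, and for being higher in human osteoarthritic cartilage. HDAC4 itself holds back chondrocyte hypertrophy in mice by binding the transcription factors Runx2 and Mef2c. Neither mRNA nor protein was measured on these arrays.

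The sequence of miR-22 is given first, to place it in the genome and among similar miRNAs. In RefSeq (build GRCm38.p6) miR-22 corresponds to miR-22-3p, the 3′ arm of the hairpin at chr11:75463716-75463810 on the plus strand, inside the long non-coding host gene Mir22hg at chr11:75461539-75466690. The other arm, miR-22-5p, is the miR-22* of the array. Both arms are shown with the seed, bases 2 to 8, in capitals, and the hairpin with the 3′ arm in capitals.
miR-22-3p: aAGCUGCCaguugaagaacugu
miR-22-5p: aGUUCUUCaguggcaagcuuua
mir-22 hairpin: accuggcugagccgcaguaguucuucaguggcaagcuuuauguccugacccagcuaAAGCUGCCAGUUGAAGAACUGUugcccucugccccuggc

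The mature 3′ arm lies at chr11:75463772-75463793 and the 5′ arm at chr11:75463734-75463755. Among 1679 mature miRNA names in the RefSeq table, 0 others carried the 7-base seed of miR-22-3p and 0 others matched its bases 2 to 7, so miR-22 stood alone in its seed group. The nearest other miRNA gene in the annotation, Mir3971, was 87619 bases away, so miR-22 is not part of a miRNA cluster there. The mature sequence most like it was that of miR-3966 (chr10:97423493-97423513, plus strand), which differed by an edit distance of 3 bases and has no probe of its own name on this array. It is shown because RNA this similar could bind a miR-22 probe, and the part of such binding in the signal was not tested.
miR-3966: aGCUGCCAgcuguagaacugu

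The next most similar sequence, miR-8090, had an edit distance of 7.

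miR-22 was read by 2 probes with 10 spots each per array. The brighter probe, A_54_P1310, was well above background on 6 of 6 arrays and represents miR-22 below. Signals are background-subtracted spot brightness, scaled so that every array has the same 75th percentile over the 342 probes that were well above background on all arrays. The scaled signal was 136 and 114 in the proliferative, 285 and 334 in the prehypertrophic, and 321 and 355 scaled units in the hypertrophic zone. Both proliferative arrays were low, all 4 later arrays were more than double as bright, and the prehypertrophic and hypertrophic arrays overlapped. On the log2 scale the zone means were 6.96 ± 0.18, 8.27 ± 0.16 and 8.40 ± 0.10 in the proliferative, prehypertrophic and hypertrophic zones (SD, n = 2 arrays each).

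The spots of a single array lay close together. Their coefficient of variation for the brighter probe was 2.81% to 5.80% over the 6 arrays. The dimmest used spot of any later array read 270 scaled units, on the first prehypertrophic array, and the brightest used spot of any proliferative array read 147, on the first one. No spot of a later array therefore reached down to the proliferative range. Spots of an array share 1 RNA sample and are not replicates of a zone.

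Between arrays, miR-22 also varied less than most miRNAs. Its pooled SD within zones was 0.15 log2 units, against a median of 0.26 over the 225 miRNAs tested, and 86.2% of these had a larger SD. Choosing a miRNA for a pattern seen on all arrays favours a small SD, so this is a description only. Each SD rests on pairs of arrays.

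**Figure D1:**
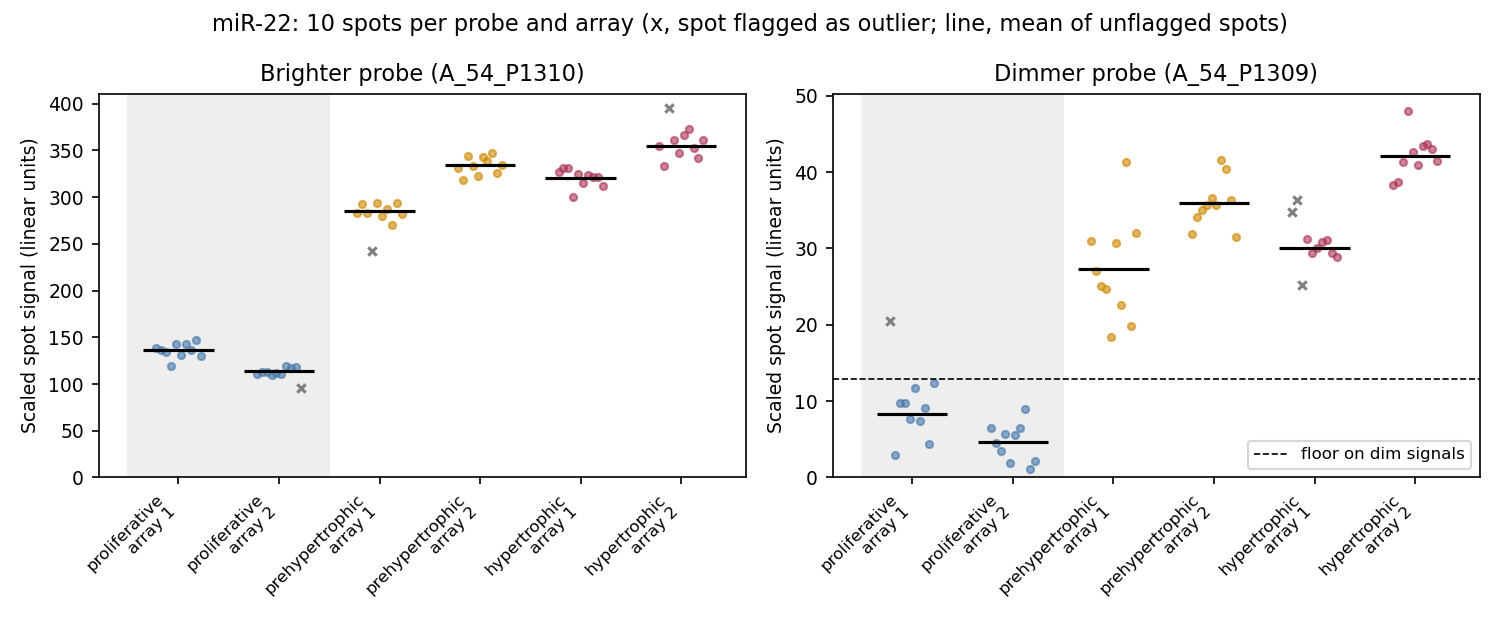
Scaled signal (linear units) of every miR-22 spot on the 6 arrays, ordered by zone, for the brighter probe (left) and the dimmer probe (right). Coloured points are used spots, crosses are spots flagged as outliers, black lines are means of the used spots, the shaded area marks the proliferative arrays, and the dashed line is the floor of 12.8 units. For the brighter probe the proliferative means are 136 and 114 and the later means 285 to 355.

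The second probe, A_54_P1309, was far dimmer but ordered the zones in the same way. Its scaled signal was 8.34 and 4.66 in the proliferative, 27.3 and 35.9 in the prehypertrophic, and 30.1 and 42.1 scaled units in the hypertrophic zone. Its signal exceeded background clearly on all 4 later arrays and on neither proliferative array, where 1 of 10 and 0 of 10 spots carried that flag, the 1 being an outlier spot that was left out. For this probe the proliferative level is thus only a bound. The bound takes, on each proliferative array, the lowest signal of any probe well above background there. Against this bound the prehypertrophic zone was at least 2.12-fold higher by the dimmer probe, and the hypertrophic zone at least 2.41-fold higher. Between the later zones, where both probes were measured on all 4 arrays, the hypertrophic minus prehypertrophic difference was 0.19 log2 units by the dimmer and 0.13 by the brighter probe.

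The opposite arm gave no measurable signal. The 2 probes of miR-22* together have 20 spots per array, of which 1 was well above background on the second prehypertrophic array and 0 on each of the other 5 arrays. The scanner software called miR-22 detected on 6 of 6 arrays and miR-22* on 0 of 6. The mean unscaled signal of the better miR-22* probe ran between -0.94 and 4.42 over the 6 arrays.

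A rank within an array does not depend on a single factor that multiplies all of its signals. Among 690 miRNAs, each at its brightest probe, miR-22 ranked 62nd and 63rd on the proliferative arrays. It ranked 37th and 36th on the prehypertrophic and 34th and 29th on the hypertrophic arrays. The 2 proliferative ranks stood apart from the 4 later ones, and both hypertrophic ranks were above both prehypertrophic ranks. By the scanner's total signal per miRNA the ranks were 74 and 86, then 42 and 39, then 38 and 36 in the same order of zones. Brightness differs between probes for reasons other than RNA amount, so a rank places miR-22 among signals and not among molecule numbers.

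**Figure D2:**
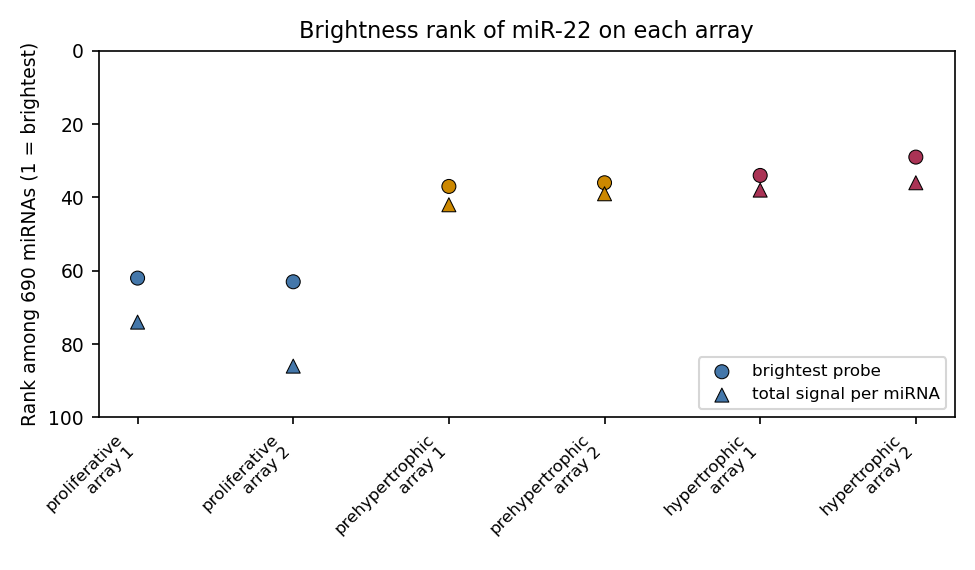
Brightness rank of miR-22 among 690 miRNAs on each array, with rank 1 (the brightest) at the top, by its brightest probe (circles) and by the scanner's total signal per miRNA (triangles). The proliferative arrays lie at 62 and 63 by the brightest probe and the later arrays between 29 and 37.

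The difference between the prehypertrophic and proliferative zones was most of the whole. miR-22 was 2.48-fold brighter in the prehypertrophic than in the proliferative zone (log2 difference 1.31, SE 0.26, from limma's fit over all tested miRNAs). Over the 4 possible pairs of one prehypertrophic with one proliferative array, the fold was 2.10 to 2.94. In the hypertrophic zone miR-22 was 2.71-fold brighter than in the proliferative zone (log2 difference 1.44, SE 0.26), with 2.36 to 3.12 over the 4 pairs. The lowest later array lay 1.07 log2 units above the highest proliferative array. These values chose miR-22 and so carry no p-value here. As background, 5 of 225 miRNAs (2.22%) passed the limma threshold between prehypertrophic and proliferative zones, and 33 (14.7%) between hypertrophic and proliferative zones, of which 13 (5.78%) were higher and 20 (8.89%) lower. In 16 of 225 (7.11%) all 4 later arrays lay above both proliferative arrays, and in 30 (13.3%) all 4 lay below both. A full separation of the arrays is thus not particular to miR-22, whose gap was the 4th largest of the 16.

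Both comparisons share the proliferative arrays. In the order of all 225 differences, that of miR-22 ranked 5th between prehypertrophic and proliferative zones, next to miR-322* (1.70), the minor arm of the miR-322 hairpin, above it and to miR-451 (1.06), an erythroid miRNA, below it. It ranked 10th between hypertrophic and proliferative zones, between miR-126-3p (fitted 1.68), an endothelial miRNA that was well above background on no proliferative array, and miR-2137 (1.16).

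Between the hypertrophic and prehypertrophic zones no difference was called. This contrast is the difference of the 2 that chose miR-22, and a miRNA chosen for an early rise tends to show a small step here. Its p-value is therefore not independent of the choice. The hypertrophic minus prehypertrophic difference was 0.13 log2 units (1.09-fold, SE 0.26, limma adjusted p = 0.737), with a 95% interval of -0.44 to 0.69, or 0.739-fold to 1.62-fold. With 2 arrays per zone, changes inside that interval could not be told from none. In this contrast 3 of 225 miRNAs (1.33%) passed, and miR-22 ranked 99th, between miR-2183 (0.13) and miR-19a (0.12). On the slide, row 1 held the hypertrophic arrays and row 2 the prehypertrophic ones, and each row also held 1 of the proliferative arrays, so zone and row are largely confounded in this contrast. With the row as a block the difference was -0.13 (adjusted p = 0.746). Within row 1 the hypertrophic minus proliferative difference was 1.31, and within row 2 the prehypertrophic minus proliferative difference was 1.44.

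Of the hypertrophic minus proliferative difference on the log2 scale, 91.1% was already present in the prehypertrophic zone. Among the 13 miRNAs that were higher in the hypertrophic than in the proliferative zone past the limma threshold, this share ran from -12.0% for miR-2138 to 125% for miR-181a-1*, with a median of 42.8%. The share was 118% for miR-503, 90.9% for miR-322 and 77.3% for miR-193b, while miR-451 had 25.4% and miR-21 had 22.4%. miR-22 was chosen for an early rise, which favours a high share, so its share and its place beside the median are a description only. Of the 13, miR-181a-1*, miR-181a and miR-126-3p lay at the floor on both proliferative arrays, and miR-451 and miR-21 on 1. The floor thus sets part of their shares, and the place of miR-22 among the 13 is also loose for that reason. These shares are ratios of differences with 2 arrays per zone and share the same proliferative arrays, and the order among near values is not resolved.

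The miRNAs with the most similar profile were named by Pearson's correlation of log2 signals with miR-22 over the 6 arrays, a description with no p-value. They were miR-322 (r = 0.99, Spearman's rho 0.94), which is encoded on the X chromosome next to miR-503, then miR-193b (0.97, rho 0.94), miR-503 (0.97, rho 0.71), miR-181a-1* (0.96, rho 0.70) and miR-19a (0.88, rho 0.94), a member of the miR-17-92 cluster. The median over the other 224 tested miRNAs was -0.13. All points share the step between the proliferative and the later arrays. Without the 2 arrays farthest from the median, which were both proliferative, r over the other 4 arrays was 0.78 for miR-322, 0.80 for miR-193b and 0.81 for miR-19a, against 0.06 for miR-503 and -0.06 for miR-181a-1*. For the last pair the relation did not hold without the proliferative arrays. Of 223 tested miRNAs with such an r, 24 (10.8%) had a higher one than miR-322, so an r of this size over 4 arrays is not particular to these miRNAs. miR-181a-1* lay at the floor on both proliferative arrays, and miR-19a on 1 of them.

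Their sizes differed. The hypertrophic minus proliferative difference was 2.30 for miR-322 and 1.70 for miR-503, but 1.15 for miR-193b and 0.56 for miR-19a, with miR-22 at 1.44 between them. At the other extreme the lowest correlations belonged to miR-501-3p (-0.96), which was at the floor on all 4 later arrays, miR-483* (-0.95) and miR-331-3p (-0.90), whose hypertrophic minus proliferative differences were -0.49, -0.80 and -0.43.

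**Figure D3:**
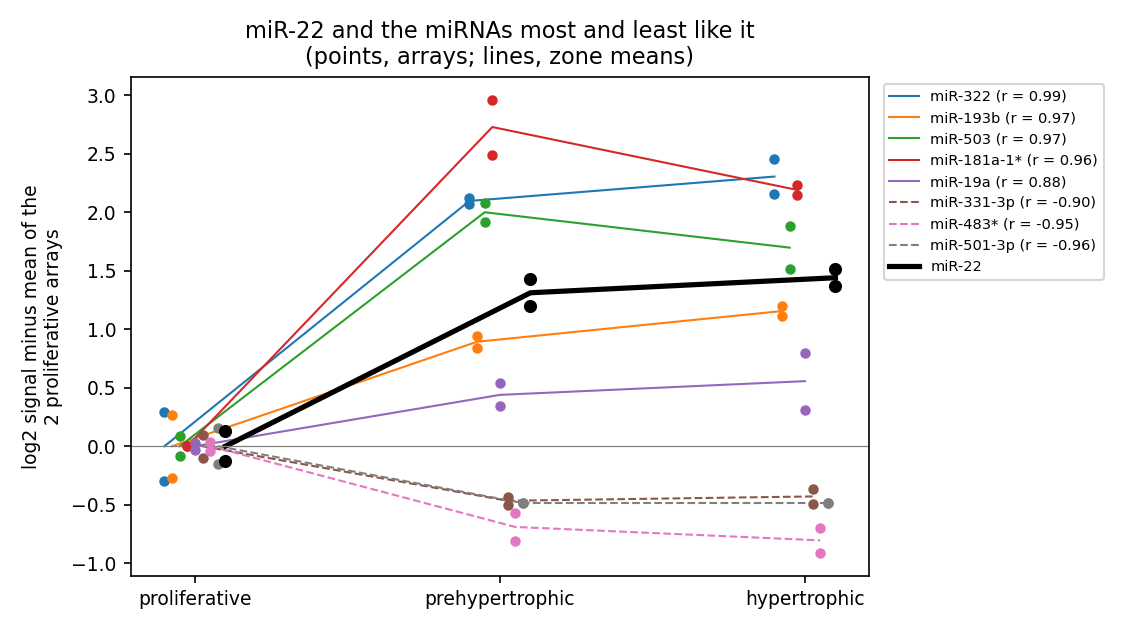
log2 scaled signal of miR-22 (black) and of the miRNAs most (solid lines) and least (dashed lines) correlated with it over the 6 arrays, each minus its mean of the 2 proliferative arrays. Points are arrays and lines join zone means; miR-22 lies at 1.31 and then 1.44 log2 units in the prehypertrophic and hypertrophic zones, between miR-503 and miR-193b.

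The mature sequences of these 5 miRNAs are shown with their seeds in capitals because a shared profile could be read as a shared family. Arms were matched to the array names by the miRBase renaming.
miR-322-5p: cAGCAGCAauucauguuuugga
miR-193b-3p: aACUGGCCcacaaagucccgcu
miR-503-5p: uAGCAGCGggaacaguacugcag
miR-181a-1-3p: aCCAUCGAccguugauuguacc
miR-19a-3p: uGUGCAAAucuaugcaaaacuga

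None of them has the seed of miR-22. Compared position by position, 2 of the 7 seed bases of miR-322 and of miR-503 differed from those of miR-22, 3 of miR-193b, 6 of miR-181a-1* and 7 of miR-19a.

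No other miRNA of the list reported to target HDAC4 passed the threshold in these zones. Of 7 listed, miR-140, miR-365 and miR-29a were tested, and miR-1, miR-206, miR-29b and miR-29c were well above background on no array. With limma, 0 of the 3 passed in any contrast, and 1 of the 9 unadjusted p-values was under 0.05. With 2.22%, 14.7% and 1.33% of all tested miRNAs past the threshold between prehypertrophic and proliferative, hypertrophic and proliferative, and hypertrophic and prehypertrophic zones, a count of 0 of 3 is near the background and says nothing particular about the list. miR-140, the main chondrocyte miRNA, had 11.3 and 10.6 on the log2 scale in the proliferative, 10.8 and 10.8 in the prehypertrophic, and 9.96 and 10.4 on that scale in the hypertrophic zone. Its hypertrophic minus proliferative difference was -0.76 (adjusted p = 0.131), a sign opposite to that of miR-22. It passed as lower with the slide row as a block, where 33 of 225 miRNAs were lower, against 20 (8.89%) with no block. miR-365 differed by -0.29 (adjusted p = 0.595) and miR-29a by 0.51 (adjusted p = 0.523) in the same contrast. The list's median hypertrophic minus proliferative difference was -0.29, beside 0.00 over all tested miRNAs, and its median prehypertrophic minus proliferative difference was -0.12, beside -0.14.

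The summed signals of the blood and endothelium lists were highest in the hypertrophic zone, and that of the cartilage list was lowest there. The 6 listed cartilage miRNAs summed to 6574 to 10539 scaled units in the proliferative, 6937 to 7037 in the prehypertrophic, and 3972 to 4994 scaled units in the hypertrophic zone. Most of the sum on each array was that of miR-140*, at 11.2 to 12.8 on the log2 scale. Of the 6 listed, 5, 5 and 4 were well above background on both arrays in the same order of zones. miR-675-3p of that list lay at the floor on both hypertrophic arrays and was lower there than in the proliferative zone (limma adjusted p = 0.0393). Over all tested miRNAs 20 of 225 (8.89%) were lower in that contrast, so 1 call among 5 tested says nothing particular about the list. The other tested members of the list did not pass in that contrast. miR-140*, miR-455 and miR-140 had differences of -0.98, -0.78 and -0.76 (limma adjusted p = 0.0533, 0.0573 and 0.131). miR-455* went the other way, with 0.37 (adjusted p = 0.490), so the list did not fall as a whole. The part of the lower summed cartilage signal in the miR-22 difference was not tested. By contrast, miR-133a, miR-133b, miR-1 and miR-206 of the skeletal muscle list were above background on no array. The fifth of that list, miR-208b, was above background on all 6, and the summed signal of the list was 159 to 168 in the proliferative, 123 to 166 in the prehypertrophic, and 119 to 122 scaled units in the hypertrophic zone. The summed scaled signal of the 8 listed blood miRNAs was 27.4 to 43.4 in the proliferative, 45.8 to 48.5 in the prehypertrophic, and 270.2 to 294 scaled units in the hypertrophic zone. Of that list, miR-155, miR-150, miR-144 and both arms of miR-142, were above background on no array. miR-486 exceeded background on a single array of each outer zone, with the hypertrophic value (4.03 on the log2 scale) below the proliferative one, and lay at the floor on the other 4. miR-223 had 3.71 and 3.74 in the proliferative, 3.99 and 3.68 in the prehypertrophic, and 4.30 and 4.92 on the log2 scale in the hypertrophic zone, a hypertrophic minus proliferative difference of 0.88 that did not pass the threshold (limma adjusted p = 0.0594). Most of the summed blood signal in the hypertrophic zone was that of miR-451. miR-451 had 7.84 and 8.01 on the log2 scale in the hypertrophic zone, against 4.86 and 4.76 in the prehypertrophic zone. Its hypertrophic minus prehypertrophic difference was 3.12 (limma adjusted p = 2.14e-05), where that of miR-22 was 0.13. Over all tested miRNAs 3 of 225 (1.33%) passed in this contrast, all as higher. miR-126-3p, which marks endothelium, was at the floor on all 4 proliferative and prehypertrophic arrays. The endothelium list, which also held miR-126-5p, above background on no array, summed to 35.2 to 47.9 scaled units in the hypertrophic zone and to 0 in the other zones, with negative signals taken as 0. In the prehypertrophic minus proliferative contrast, miR-451 was 1.06 log2 units higher (limma adjusted p = 0.0511), and the floor hides any lower signal of miR-126-3p. The part of blood cell RNA and of endothelial RNA in the miR-22 signal was not tested. In such tissue samples a larger number of cells that hold miR-22 and more miR-22 per cell cannot be told apart.

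The difference from the proliferative zone kept its sign in each of the 20 other settings run, some of which could not move it. It was 0.99 to 1.65 log2 units for prehypertrophic minus proliferative and 1.12 to 1.92 for hypertrophic minus proliferative. Leaving out 1 array at a time gave 1.18 to 1.44 for the prehypertrophic and 1.31 to 1.57 for the hypertrophic zone, and both extremes came from leaving out a proliferative array. The lowest later array stayed above the highest proliferative array under each of the 5 scalings, by 0.91 to 1.23 log2 units. The gap was smaller, 0.82, with normexp on median signals, and it was 1.23 in the authors' deposited table. In that table miR-22 had 1.95 and 1.58 in the proliferative, 3.25 and 3.56 in the prehypertrophic, and 3.18 and 3.48 log2 units in the hypertrophic zone. These values placed it slightly lower in the hypertrophic than in the prehypertrophic zone (-0.076 log2 units, limma adjusted p = 0.887). The size, unlike the sign, depended on the scaling: unscaled signals gave 1.65 and 1.92, because the 75th percentile of the arrays ran between 108 and 190 units and both proliferative arrays were the dimmest.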

How the data were processed

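The authors scanned 6 one-colour arrays (1 slide, 1 scan, miRBase version 14 design), and per the file headers Feature Extraction 10.7.3.1 subtracted background to give the deposited linear intensity per spot. The authors' deposited log2 value table equals log2 of the total signal per miRNA, set to 1 if lower, minus a constant per array (departures up to 1.3e-06), with column medians of -4.94 to -4.25. Outlier spots (384 to 515 of 13800 per array) were dropped, spots averaged per probe, and arrays scaled. A floor of 12.8 units was set before log2. A probe was well above background where over 50% of used spots carried that flag; 24.2% to 27.9% of spots did so per array, and no spot was saturated. The brightest of a miRNA's probes was used, and 225 miRNAs whose probe passed this on each array of 1 zone or more were tested with limma 3.58.1 in R 4.3.3 (zone as factor, Benjamini-Hochberg, threshold 0.05; tested on simulated data). The set of tested miRNAs and scaling probes was kept when arrays were left out. Other settings changed scaling, signal, spots, probe, floor, filter, block and arrays. Named miRNAs were miR-22, miR-22*, the 5 most and 3 least correlated, rank neighbours, the HDAC4 list and cell markers; others named (miR-2138 and the rises in the share comparison, and the similar sequences) were chosen after their values were seen. Members and lists were chosen with earlier results of these data known. The number of arrays limits the precision.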

Additional observations from a re-analysis of the deposited data

How the results depend on the processing

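Some of the other settings could not move a given difference of miR-22. With 2 times the floor and with the run of title numbers as a block both differences from the proliferative zone were exactly as reported. Leaving out an array of the zone not compared also left a difference as it was. The dimmer probe alone gave 1.29 and 1.47, but it lay at the floor on both proliferative arrays. Its measured proliferative mean was 2.64 log2 units, below the floor of 3.68, so the floor sets part of both values. The mean of both probes holds the same floor, so neither of these settings is a free check. Counting these, 17 of 20 other settings kept the prehypertrophic minus proliferative difference of miR-22 within 1 within-zone SD (0.15 log2 units) of the reported value. For the hypertrophic minus proliferative difference 18 did. The exceptions were no scaling (1.65 and 1.92), normexp on median signals (0.99 and 1.12; chosen after seeing the data, since the files hold no mean signal) and, for the first, the authors' table (1.64). The hypertrophic minus prehypertrophic difference changed sign in the authors' table (-0.076) and with the slide row as a block (-0.13), and passed the threshold in 0 of 22 settings. The early share was 1.05 in the authors' table and 0.831 to 0.990 without 1 array. Levels in the proliferative, prehypertrophic and hypertrophic zones were 7.54, 8.53 and 8.66 with normexp and 5.32, 6.62 and 6.78 as the mean of both probes, and unscaled 6.66 and 8.59 in the outer zones. Mean ranks were 80, 40.5 and 37 in the authors' table and 99, 52 and 48 as the mean of both probes. Of the 5 miRNAs most like miR-22, 3 were shared with quantile normalization and 3 with a root mean square difference as the measure, and 4 when any 1 array was left out.

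Counts of miRNAs past the threshold moved more than miR-22 did; the cause was not tested. Between prehypertrophic and proliferative zones, 5 became 3 with the 75th percentile over all probes, 1 with the sum, 1 without scaling, 10 in the authors' table, 0 with 2 times the floor and 0 without a filter (more miRNAs tested), and 0 to 11 without 1 array. The 11, found without the second proliferative array, were 3 higher and 8 lower, against 5 and 0 with all arrays. Between hypertrophic and proliferative zones, 33 (13 higher, 20 lower) became 11 (10 and 1) with the 75th percentile over all probes, 12 (11 and 1) with the median, 11 (11 and 0) with the sum, 19 (11 and 8) with quantile normalization, 15 (15 and 0) without scaling, 20 (13 and 7) in the authors' table, 20 (10 and 10) as the mean of probes, 8 (5 and 3) with 2 times the floor and 1 without a filter, and 1 to 45 without 1 array. It was raised to 47 (14 and 33) with normexp, 46 (15 and 31) with the run of title numbers as a block, 45 (12 and 33) with the slide row as a block and 45 (12 and 33) without the second proliferative array, and lowered to 13 (10 and 3) without the first proliferative array, and to 2 and 1 when the first or the second hypertrophic array was left out. Between hypertrophic and prehypertrophic zones, 3 became 5 with the median, 5 with the sum, 6 without scaling, 5 with normexp, 1 as the mean of probes, 1 with 2 times the floor, 1 with the row as a block, 5 with the run of title numbers (13 to 15, 16 to 18) as a block, 1 without a filter and 7 with a trended prior, and 1 to 3 without 1 array. In the HDAC4 list, 0 calls became 1 (miR-140, lower) with the row as a block, and 0 to 1 without 1 array. The zones share no replicate numbers in the labels, and no label says that the 2 runs of title numbers pair samples. With the run as a replicate block, 6, 46 and 5 miRNAs passed in the 3 contrasts. The differences of miR-22 stayed at 1.31, 1.44 and 0.13, which was fixed in advance because each run holds 1 array of each zone.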
